A study of Mus musculus with 30 samples.

Results

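The 10 genes described here are markers of macrophages, taken by symbol from the deposited table of gene counts: Cd163, Mrc1, Lyve1, Timd4, Folr2, C1qa, C1qb, C1qc, Lyz2 and Adgre1. They are 10 of the 36558 genes in that table, and each of them passed the filter on low counts in both tissues. RNA was sequenced from heart and from white adipose tissue of C57BL/6J male mice that had received either AAV8-GFP or AAV8-F11. AAV8 is an adeno-associated virus serotype that favours the liver, GFP is green fluorescent protein, and F11 encodes coagulation factor XI. The labels name neither the promoter of the vectors nor the fat depot. Both groups shared the same regimen, HFD + l-NAME (a high-fat diet combined with a blocker of nitric oxide synthase) for 7 weeks, and their tissues were taken at 15 weeks of age. No group on normal diet or without a vector was analysed here, so every comparison of F11 with GFP is made within treated animals. There were 6 GFP and 7 F11 heart libraries, and 8 GFP and 8 F11 adipose libraries, named here by the library numbers of the labels. Whether every library is a different mouse is unstated in the labels, and the p-values therefore reflect the spread among these libraries, part of which could be technical.

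Macrophages lodge in nearly every organ. Some descend from cells that settle before birth and renew themselves in place, while others derive from blood monocytes that enter during life or with inflammation. Resident heart macrophages are usually recognised by Lyve1, Timd4, Folr2 and Cd163, and by the lack of the chemokine receptor Ccr2. In fat, resident perivascular macrophages carry the same scavenger and endocytic receptors, and obesity adds monocyte-derived, lipid-associated macrophages that surround dying adipocytes. Among the members, Adgre1 (the F4/80 antigen) and Lyz2 (lysozyme M) are general macrophage genes, and Lyz2 is also active in monocytes and neutrophils. C1qa, C1qb and C1qc encode the 3 chains of C1q, the recognition molecule of the classical complement pathway, which macrophages secrete. Cd163 takes up haemoglobin bound to haptoglobin, Mrc1 is the mannose receptor, Folr2 is folate receptor beta, Timd4 binds phosphatidylserine on dying cells, and Lyve1 is a hyaluronan receptor that lymphatic endothelium makes as well.

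All positions are those of GRCm38 with GENCODE vM21 gene models. The C1q genes lie side by side on the minus strand of chromosome 4, C1qb at chr4:136880129-136886187, C1qc at chr4:136889804-136893065 and C1qa at chr4:136895917-136898803, within 18.7 kb. Lyz2 lies at chr10:117277331-117282321, beside its paralog Lyz1, and both fall within 15.5 kb of the minus strand. Adgre1 lies at chr17:57358691-57483527, Mrc1 at chr2:14229392-14332057, Cd163 at chr6:124304656-124330527 and Timd4 at chr11:46810800-46844332, all on the plus strand. Lyve1 at chr7:110850607-110863239 and Folr2 at chr7:101839988-101857194 share a chromosome on the minus strand, and are not neighbours.

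Near-identical copies limit 2 of these counts. Lyz2 and Lyz1 have coding sequences of 444 bases that are the same at 422 positions (95%). The first 180 coding bases of each are printed because they show how little separates the lysozyme genes, with capitals at the 15 positions that differ.
Lyz2: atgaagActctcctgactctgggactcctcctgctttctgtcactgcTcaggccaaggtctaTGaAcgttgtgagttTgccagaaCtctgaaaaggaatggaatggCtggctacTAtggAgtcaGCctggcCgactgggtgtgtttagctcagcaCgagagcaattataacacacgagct
Lyz1: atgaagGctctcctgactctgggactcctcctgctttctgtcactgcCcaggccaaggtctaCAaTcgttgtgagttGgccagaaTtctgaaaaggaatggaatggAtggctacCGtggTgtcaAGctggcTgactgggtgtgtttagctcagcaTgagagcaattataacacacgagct
Of the 1286 words of 31 bases in the Lyz2 transcript, the length over which the authors' counting program matches reads by default, 422 (32.8%) also occur in Lyz1. Lyz1, the lysozyme of intestinal Paneth cells, stood at 0.347 to 1.42 CPM (estimated counts per 1000000, scaled between libraries by TMM) in heart and 11.7 to 48.4 CPM in adipose tissue. Both ranges lie far below those of Lyz2 given further on, and in adipose tissue Lyz1 was lowest in library G-L148, where Lyz2 was highest. Folr2 shares 891 of its 1566 words (56.9%) with the predicted gene Gm10602, so its level is uncertain by however the estimation divided those reads. The other 8 members share at most 32 words (Cd163, 0.583%) with other genes.

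Stretches just before the start sites of 5 members are printed because the adipose data set these genes apart: C1qb, C1qc and Mrc1 varied together between adipose libraries, and Cd163 and Timd4 did not. They come from the RefSeq promoter table (GRCm38.p6), in which 7 members were matched, all but C1qa, Lyve1 and Adgre1. Each is written 5′ to 3′ on the strand of the gene, stops where a GENCODE exon begins, and shows in capitals any match to the PU box, a motif of the myeloid factor PU.1 (GAGGAA, or TTCCTC on the other strand), and to the MAF core motif (TGCTGA, or TCAGCA).
C1qb, chr4:136886201-136886450, minus strand: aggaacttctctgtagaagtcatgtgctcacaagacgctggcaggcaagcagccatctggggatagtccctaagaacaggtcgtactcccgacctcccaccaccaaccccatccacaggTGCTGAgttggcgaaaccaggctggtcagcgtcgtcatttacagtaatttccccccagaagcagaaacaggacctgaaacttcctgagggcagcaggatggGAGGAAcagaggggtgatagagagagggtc
C1qc, chr4:136893066-136893164, minus strand: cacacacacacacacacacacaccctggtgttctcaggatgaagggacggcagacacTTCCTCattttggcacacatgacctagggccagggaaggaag
Mrc1, chr2:14229164-14229391, plus strand: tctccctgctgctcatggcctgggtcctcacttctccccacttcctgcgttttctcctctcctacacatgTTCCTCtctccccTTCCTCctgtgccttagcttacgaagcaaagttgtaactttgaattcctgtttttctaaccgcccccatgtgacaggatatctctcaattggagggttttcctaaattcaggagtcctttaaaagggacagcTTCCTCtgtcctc
Cd163, chr6:124304401-124304650, plus strand: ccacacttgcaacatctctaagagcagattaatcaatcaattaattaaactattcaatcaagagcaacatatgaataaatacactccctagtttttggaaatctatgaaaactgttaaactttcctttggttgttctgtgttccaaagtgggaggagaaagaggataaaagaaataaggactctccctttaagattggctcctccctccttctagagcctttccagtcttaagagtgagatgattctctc
Timd4, chr11:46810549-46810798, plus strand: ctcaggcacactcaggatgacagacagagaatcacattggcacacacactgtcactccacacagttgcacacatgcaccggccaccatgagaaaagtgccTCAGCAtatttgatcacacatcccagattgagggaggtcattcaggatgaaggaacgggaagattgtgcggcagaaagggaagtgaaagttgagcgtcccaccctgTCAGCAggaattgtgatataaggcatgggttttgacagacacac
Mrc1 holds 3 PU boxes, C1qb holds 1 PU box and 1 MAF core motif, C1qc holds 1 PU box, Timd4 holds 2 MAF core motifs and Cd163 holds neither motif. Folr2 and Lyz2, which varied with the C1q genes, hold no PU box in this window, and each of their windows holds 1 MAF core motif. Of all 32851 promoters in the table, 7639 (23.3%) hold a PU box in the same 250 bases and 5282 (16.1%) hold a MAF core motif. A match is a description of the letters and shows no binding.

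Total estimated counts ran from 25751607 to 33022539 per library in heart and from 15949550 to 26329117 in adipose tissue. The tissue labels matched their markers. Myh6, the cardiac myosin heavy chain, stood at 32000 to 44440 CPM in hearts, and Adipoq, the adiponectin gene of fat cells, stood at 705.6 to 2224 CPM in adipose tissue and at most 3.47 CPM in heart. The gene carried by the vector gave no check of the vector labels, since F11 was at 0 to 0.501 CPM in all hearts, and in adipose tissue the GFP libraries (0 to 3.496 CPM) overlapped the F11 libraries (0.388 to 11.96 CPM). Several libraries held transcripts of other tissues. The GFP adipose library G-L140 had 5577 CPM of summed cardiomyocyte markers, against 19.43 to 45.81 CPM in F11 adipose libraries, and adipose libraries G-L136, G-L137, G-L145 and G-L146 had over 500 CPM of the liver transcript Alb. Among hearts, L2 had 166 CPM of Alb, and L8 had the lowest sum of atrial markers, 51.77 CPM. Fits of the members and correlations of their pairs are given with and without these libraries where they differ. CPM ranges include all libraries.

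Macrophage transcripts were more abundant in adipose tissue than in heart for 9 of the 10 members, and none was more abundant in heart. Over all 16526 genes tested, 86.6% differed between the tissues, 47.3% higher in adipose tissue and 39.3% higher in heart, so the count of 9 is read against a high background. The members' median log2 difference was 1.92, against 0.119 over all genes tested. Scaling by library totals alone moved that all-gene median to 1.08, with 12626 genes higher in adipose tissue and 2682 higher in heart (7818 and 6496 with TMM) and with all 10 members higher in adipose tissue. Sizes are therefore relative to the TMM scaling used throughout. In bulk tissue, more cells of a type and more RNA per cell cannot be told apart, and tissue cannot be told apart from the separate series of library numbers.

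The general markers Adgre1 and Lyz2 differed more than the other 8. Adgre1 differed most, with 5.052, 10.14 and 13.23 CPM (lowest, median and highest) over 13 hearts and 24.96, 123.5 and 333.1 CPM over 16 adipose libraries. The log2 difference was 3.70 (SE 0.36), a fold of 13. Lyz2 followed, with 71.13, 84.61 and 106.2 CPM in heart and 260.8, 819.8 and 1327 CPM in adipose tissue, a log2 difference of 3.10 (SE 0.20). For both genes every adipose library lay above every heart. C1qb (log2 2.33), Folr2 (2.17), Mrc1 (2.03), C1qc (1.81) and C1qa (1.54) also showed no overlap between tissues. The share of all genes without overlap was not computed. With 86.6% of the genes tested differing between the tissues, the lack of overlap is not read as a trait of these markers.

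The remaining 3 members differed less and their tissues overlapped. Cd163, the haemoglobin scavenger receptor, had 19.03, 24.02 and 38.18 CPM in heart and 36.95, 51.98 and 70.3 CPM in adipose tissue, a log2 difference of 1.12 (SE 0.10). The overlap came from the highest heart, L33, and the lowest adipose library, G-L143. Lyve1 had 13.68, 19.83 and 30.2 CPM in heart and 18.24, 27.41 and 35.14 CPM in adipose tissue, a log2 difference of 0.42 (SE 0.10, adjusted p = 0.000556). For Lyve1 the difference passed the threshold in GFP libraries alone (log2 0.69) and missed it in F11 libraries alone (log2 0.115, adjusted p = 0.509). Timd4 was the scarcest member, with 0.8215, 1.535 and 1.995 CPM in heart and 0.8388, 1.522 and 4.102 CPM in adipose tissue. Its log2 difference of 0.20 (SE 0.20, adjusted p = 0.352) missed the threshold and was 0.03 without G-L140. Under library totals it passed at 1.15, close to the all-gene median of 1.08 on that scale. Counts of Timd4 were 16 to 41 per heart and 23 to 91 per adipose library, which limits what can be seen.

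**Figure D1:**
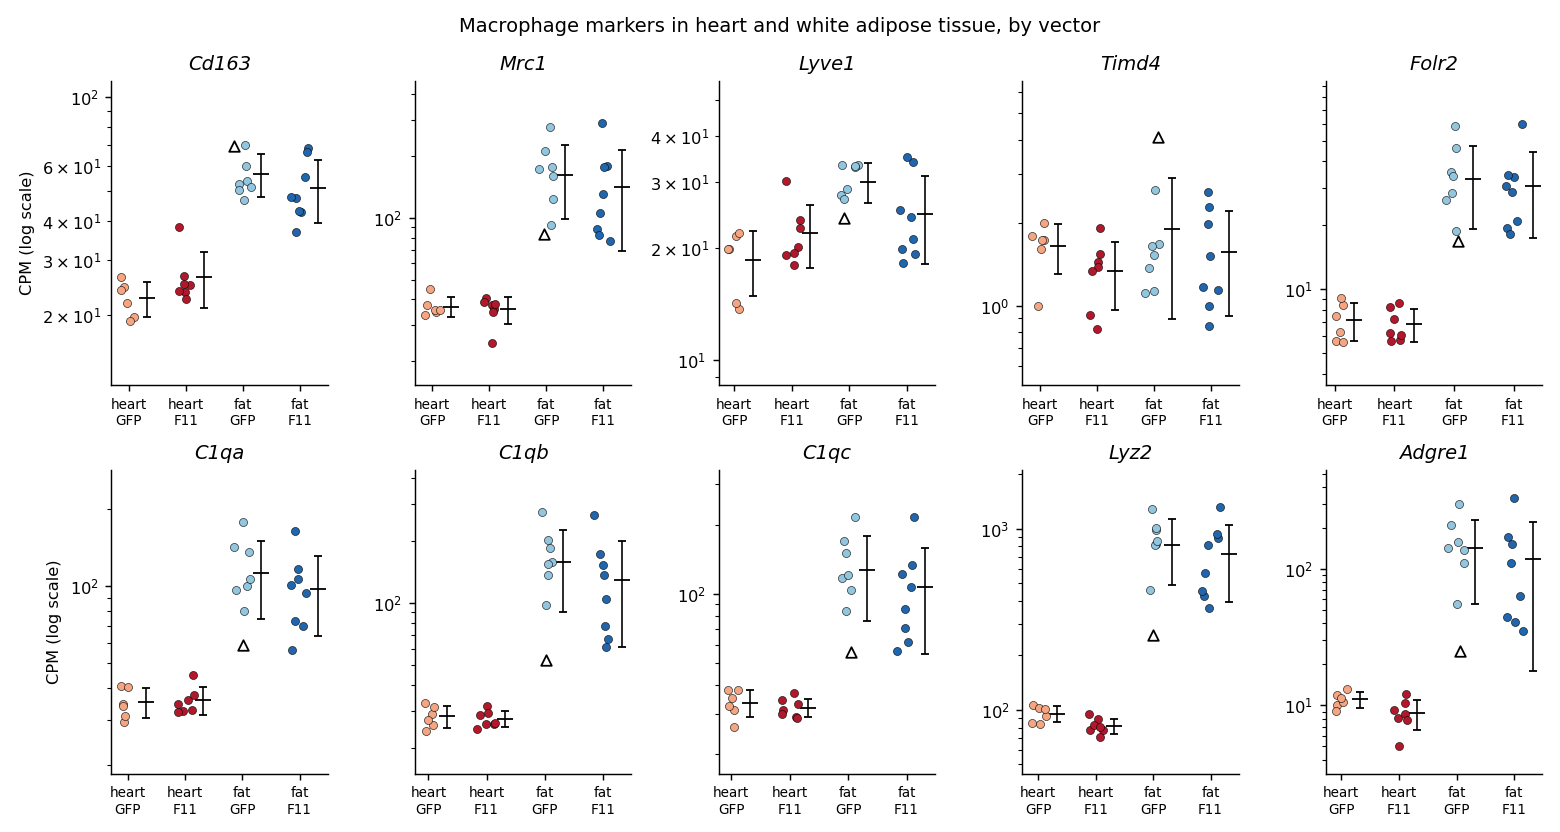
Level of each of the 10 markers in every library (CPM on a log axis, one panel per gene with its own scale), by tissue and vector; points are libraries, bars beside them are the mean and SD, and open triangles mark G-L140, the adipose library with cardiomyocyte transcripts. Adgre1 spans 24.96 to 333.1 CPM in adipose tissue, while Cd163 spans 36.95 to 70.3 CPM, and GFP and F11 points overlap in every panel.

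Levels of different genes can be ranked only per length. As mean CPM per kb of exon, heart ran Lyz2 66.8, C1qa 34.1, C1qb 25.7 and C1qc 16.9, each above the next in all 13 hearts. Below these came Lyve1 at 6.96, above Mrc1 at 5.70 in 10 of 13 hearts. Folr2 at 4.51 and Cd163 at 4.51 could not be ordered, Folr2 being the higher in 7 of 13 hearts. Adgre1 was ninth at 3.03 and Timd4 last at 0.680.

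In adipose tissue the order changed. Lyz2 led at 583.8 CPM per kb, followed by C1qb at 132, which was above C1qa at 101.1 in 14 of 16 libraries, whereas in heart C1qa was above C1qb in 13 of 13. C1qc followed at 60.5, and Adgre1 took the fifth place at 40.3, above Mrc1 at 23.8 in 13 of 16 libraries. Folr2 stood at 20.7, Cd163 at 9.88 and Lyve1 at 9.38, Cd163 being above Lyve1 in 10 of 16. Timd4 was again last at 0.796. Since some neighbours changed places between libraries, only the steps held by all libraries fix the order.

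The main comparison of the study asks which transcripts differ with the F11 vector. Within each tissue the GFP and F11 libraries also carry separate runs of library numbers, so vector cannot be told apart from these runs. In heart none of the 10 members passed the threshold in edgeR's quasi-likelihood test with Benjamini-Hochberg adjustment over all genes, where 0.872% of the 14684 genes tested did (128 genes). At an unadjusted p under 0.05, 2 of 10 members passed, Lyz2 and Adgre1, against 12.5% of all genes. DESeq2 and limma voom with quality weights called 0 of the 10 as well. Of the members 3 had a positive and 7 a negative log2 fold change of F11 over GFP, with a median of −0.06 against −0.01 for all genes.

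Lyz2 was the member with the lowest p in heart. The GFP hearts had 83.61, 97.29 and 106.2 CPM (lowest, median, highest) and the F11 hearts 71.13, 80.19 and 94.76 CPM. None of the 7 F11 hearts exceeded the GFP median, yet the groups overlapped between 83.61 and 94.76 CPM. The log2 fold change was −0.22 (SE 0.07, adjusted p = 0.151). Leaving out one heart at a time gave adjusted p-values from 0.071 to 0.299.

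Adgre1 had 9.152, 10.97 and 13.23 CPM in GFP hearts and 5.052, 8.648 and 12.03 CPM in F11 hearts, and 1 of 7 F11 hearts exceeded the GFP median. Its log2 fold change was −0.35 (SE 0.15, adjusted p = 0.349), and it was −0.25 without L40, the heart with the least. The scavenger and hyaluronan receptors had the opposite sign. Cd163 had 19.03, 22.92 and 26.47 CPM in GFP hearts and 22.38, 24.87 and 38.18 CPM in F11 hearts, with 6 of 7 F11 hearts above the GFP median (log2 0.22, SE 0.12, adjusted p = 0.487). Without L33, the F11 heart at 38.18 CPM, it was 0.11. Lyve1 had 13.68, 19.82 and 21.95 CPM against 17.97, 20.15 and 30.2 CPM (log2 0.24, SE 0.14, adjusted p = 0.539), and again L33 was the highest; without it Lyve1 was at 0.15.

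The other 6 members differed less or were measured less well in heart. Timd4 had 0.9947, 1.735 and 1.995 CPM in GFP and 0.8215, 1.385 and 1.907 CPM in F11 hearts (log2 −0.30, SE 0.20, adjusted p = 0.572). The 3 C1q genes stayed within 0.08 of 0 on the log2 scale (C1qa 0.02, C1qb −0.05, C1qc −0.08), with SEs of 0.07 to 0.09. Mrc1 was at −0.05 (SE 0.10) and Folr2 at −0.07 (SE 0.13), and their signs turned when single hearts were left out.

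The marker sums of cardiomyocytes and mesothelium did not overlap between the vector groups of hearts, although few single markers were called. These sums were not tested. The sums of every other list of genes used here overlapped between the vector groups of hearts. How often sums of genes outside these lists lack overlap was not counted. The 6 cardiomyocyte markers, each at or above 1 CPM in both groups, summed to 54180 to 58000 CPM in GFP and 62580 to 71590 CPM in F11 hearts. Myh6, which made up most of that sum, alone among them was called (log2 0.30, adjusted p = 0.00192). The others ran from 0.05 (Tnni3) to 0.27 (Actc1). The 6 mesothelial markers summed to 16.41 to 26.47 CPM in GFP and 7.085 to 16.19 CPM in F11 hearts. Of them 5 were at or above 1 CPM on average in GFP and 4 in F11 hearts, and none was at 0. The gap between the groups was narrow, from 16.19 CPM (L38) to 16.41 CPM (L8). Of the 6, 0 were called (lowest adjusted p = 0.166). Of the 6 adipocyte markers, 5 were tested in heart with 0 calls, with Adipoq at −1.85 (adjusted p = 0.206) and Plin1 at −1.65 (adjusted p = 0.122). Cidec was at −1.10, Lipe at −0.07 and Fabp4 at 0.02. The adipocyte sums overlapped, with 490.0 to 733.6 CPM in GFP and 478.2 to 778.4 CPM in F11 hearts. Of the 7 mast cell and eosinophil markers 3 were tested, and the mast cell protease Mcpt4 was called (log2 −1.08, adjusted p = 0.0231). Tpsb2 was at −0.15 and Kit at 0.19, neither of them called. The sums of this list overlapped, with 7.609 to 11.15 CPM in GFP and 7.272 to 9.492 CPM in F11 hearts. The 8 neutrophil markers, of which 2 reached 1 CPM on average and none was at 0, summed to 3.373 to 6.232 CPM and 2.934 to 6.67 CPM. The part of these cell types in the Lyz2 and Adgre1 values was not tested.

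To compare hearts at an equal level of other macrophage genes, the mean log2 CPM of 7 macrophage genes that are not members (Csf1r, Fcgr1, Mertk, Cd68, Tyrobp, Fcer1g and Laptm5) was added to the fit as a pan-macrophage score. With it, Lyz2 passed the threshold, lower with F11 by 0.24 on the log2 scale (log2 −0.24, SE 0.04, fold 0.847, adjusted p = 0.00906). It was the one member called among 10, where 1.01% of all genes were called in this fit. It passed without each heart in turn (adjusted p from 0.0103 to 0.0252) and without L2 and L8 together (0.0323). The call rests on the choice of the 7 genes. The score holds the 4 pan-macrophage genes with a positive heart log2 fold change (Cd68, Mertk, Fcgr1 and Fcer1g), and the 9 of the 16 genes outside it were all negative. With the mean of all 16 as covariate Lyz2 was at −0.12 (adjusted p = 0.289), and with the 9 outside the score at −0.06 (adjusted p = 0.778). With Csf1r alone it was at −0.16 (adjusted p = 0.119). Adgre1 stood at −0.38 on the log2 scale at equal score (SE 0.12, adjusted p = 0.170), and at −0.21 with all 16 genes (adjusted p = 0.599).

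**Figure D2:**
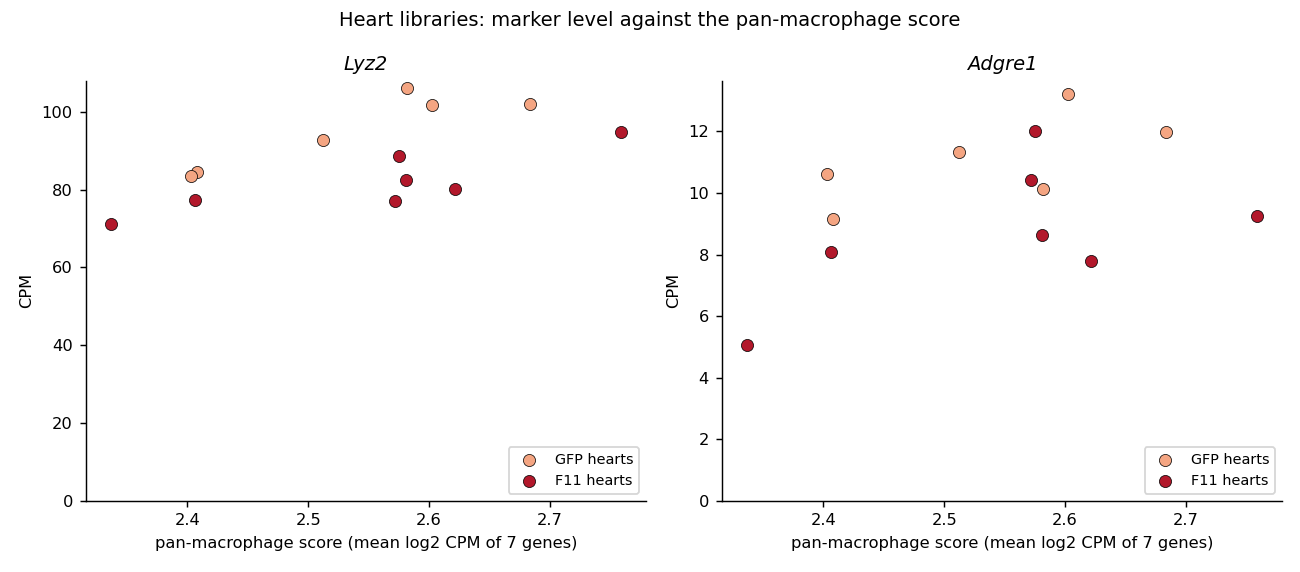
CPM of Lyz2 and Adgre1 in the 13 hearts (vertical axes from 0) against the pan-macrophage score (mean log2 CPM of 7 genes); each point is a library, coloured by vector. At similar scores most F11 points lie below GFP points for Lyz2, and both groups span similar scores; with all 16 pan-macrophage genes as covariate Lyz2 was not called.

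In adipose tissue no member passed the threshold, and 0% of the 15229 genes tested did (0 genes; 638 genes, 4.19%, at an unadjusted p under 0.05, of which 0 were members). DESeq2 called 6 genes and limma voom 0, none of them members. All 10 members had a negative log2 fold change, from −0.11 (Folr2) to −0.28 (Lyve1), with a median of −0.22 against −0.000708 for all genes. Of these, 7 varied together between libraries, so the common sign does not count 10 separate observations. Adding the pan-macrophage score, with which again 0% of genes were called, brought Adgre1 from −0.26 (SE 0.51) to −0.02 (SE 0.07) and turned the signs of Folr2 and Lyz2.

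For Adgre1 and Lyz2 the spread within a vector group was larger than the difference between vectors. Adgre1 ranged from 24.96 (G-L140) to 301.2 CPM (G-L133) in GFP, median 139.5, and from 35.22 (G-L145) to 333.1 CPM (G-L148) in F11 libraries, median 86.8. Lyz2 ranged from 260.8 to 1282 CPM in GFP (median 841.1) and from 366.5 to 1327 CPM in F11 libraries (median 693.4). The same 3 libraries, G-L140, G-L133 and G-L148, held extremes for most members. Lyve1 had the lowest p of the members in adipose tissue, with 24.12, 30.95 and 33.41 CPM in GFP and 18.24, 22.68 and 35.14 CPM in F11 libraries (log2 −0.28, SE 0.14, adjusted p = 0.9996). Only 2 of 8 F11 libraries, one of them G-L144, exceeded its GFP median. Timd4 was at −0.27 (SE 0.31), and at −0.01 without G-L140, its highest library. Adgre1 was at −0.68 without G-L148 and at −0.01 without G-L133.

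Whether the vector acted differently in the 2 tissues was tested as the heart effect minus the adipose effect. None of the 10 members passed, and 0.0242% of the 16526 genes tested did (4 genes). Lyve1 came nearest, with a difference of 0.53 on the log2 scale (SE 0.21, adjusted p = 0.488), and was the 1 member at an unadjusted p under 0.05, as 7.43% of all genes were. Cd163 followed at 0.38 (SE 0.19, adjusted p = 0.689), and the other 8 lay between −0.08 and 0.23. DESeq2 and limma voom called 0 members.

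**Figure D3:**
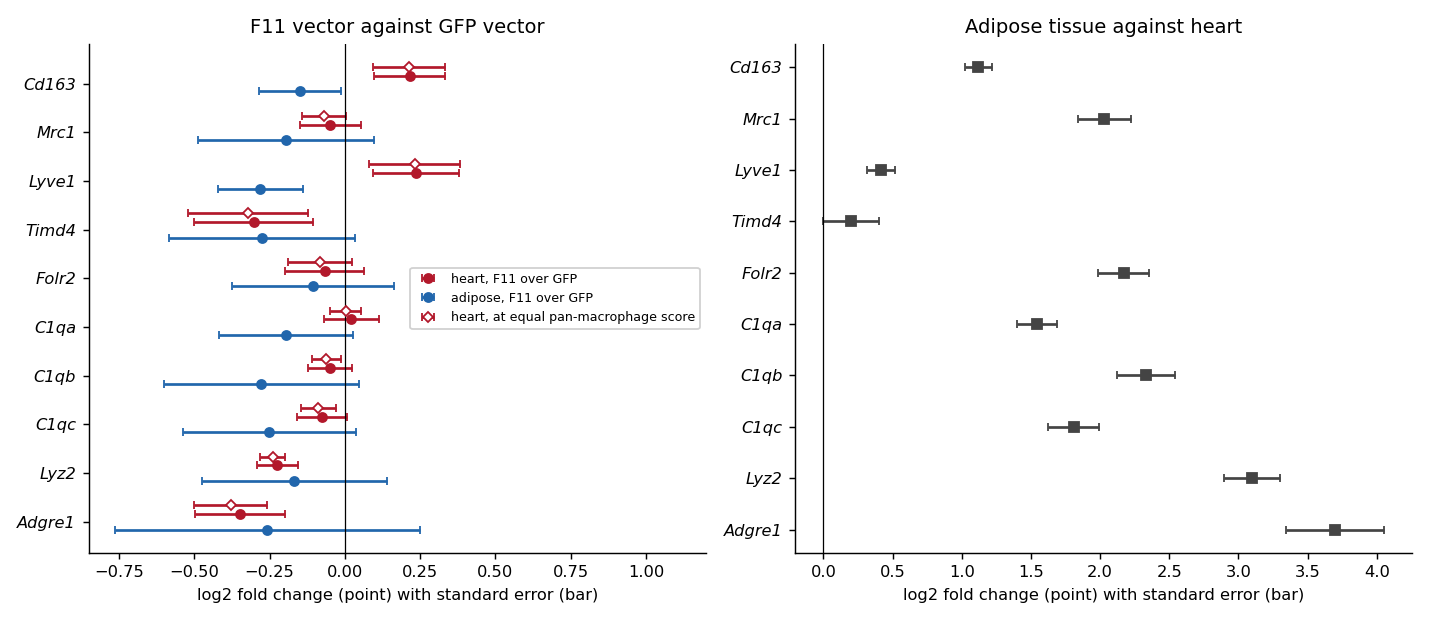
Left, log2 fold change of F11 over GFP with its standard error for each marker in heart (red circles), adipose tissue (blue circles) and heart at equal pan-macrophage score (open diamonds). Right, log2 difference of adipose tissue over heart with its standard error. In heart, Lyz2 at −0.22 has a short bar and Adgre1 in adipose tissue a long one (SE 0.51), and on the right all markers but Timd4 stand clear of 0.

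Between adipose libraries 7 of the 10 members varied together. Pearson's r of log2 CPM, with the mean of each vector group removed, was computed for all 45 pairs of members over 16 libraries, with a permutation test of 100000 draws within vector groups and adjustment over the 45 pairs. The 21 pairs among Mrc1, Folr2, C1qa, C1qb, C1qc, Lyz2 and Adgre1 had r from 0.92 to 0.991 with a median of 0.967. Each had a permutation p = 1e-05, the smallest the draws can give, and an adjusted p of 2.14e-05. The grouping into 7 and 3 was made after these values were seen and is a description. The points share libraries, and the 7 genes differ widely in level, from 16.9 CPM (Folr2) to 1327 CPM (Lyz2).

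The highest values were those of C1qc with the other C1q genes. C1qb and C1qc had r = 0.991 (Spearman's rho 0.988) and kept 0.989 without the 2 libraries farthest from the median, G-L140 and G-L148. C1qa and C1qc had 0.989 (rho 0.988, 0.981 without the same libraries), and C1qa and C1qb had 0.979 (rho 0.968, 0.964 without them). Adgre1 with C1qb had 0.984, above the last of these. Adgre1 with Lyz2 had 0.98 (rho 0.944, 0.985 without G-L140 and G-L142), and Adgre1 with Mrc1 had 0.976 (rho 0.982, 0.984 without G-L140 and G-L148). All 21 pairs were also called within each vector group, by Spearman's rho, without G-L140 (r from 0.926 to 0.992) and without the 4 Alb-rich libraries (0.927 to 0.992).

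Their amplitudes differed although their order was shared. From the lowest to the highest adipose library Adgre1 changed 13.3-fold, C1qb 5.16-fold, Lyz2 5.09-fold, C1qc 3.91-fold, Mrc1 3.76-fold, Folr2 3.53-fold and C1qa 3.16-fold. G-L140, the library with cardiomyocyte transcripts, was lowest for Adgre1 (24.96 CPM), Lyz2 (260.8 CPM), C1qb (53.33 CPM), C1qc and Folr2. Without it the lowest values were 35.22 CPM for Adgre1 (G-L145), and 366.5 CPM for Lyz2 and 61.14 CPM for C1qb (G-L142), so these folds were smaller. Relative to Csf1r, the receptor for the macrophage growth factor CSF1, all of these genes changed less. Over the 16 libraries the ratio to Csf1r changed 1.39-fold for C1qb, 1.42-fold for Mrc1 (0.728 to 1.03), 1.45-fold for C1qc and 1.5-fold for Lyz2. It changed 1.66-fold for Folr2, 1.82-fold for C1qa and 2.93-fold for Adgre1.

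Over all 16 libraries Cd163, Lyve1 and Timd4 did not follow the rest. Cd163 changed 1.9-fold and Lyve1 1.93-fold across the adipose libraries, and the ratio of Cd163 to Adgre1 CPM moved 19.4-fold, from 0.144 in G-L148 to 2.78 in G-L140. Within the F11 libraries, which leave out G-L140, that ratio moved 8.42-fold, from 0.144 in G-L148 to 1.21 in G-L145. The 21 pairs between these 3 and the other 7 had r from −0.616 to 0.21 with a median of −0.27. Only 2 of them passed, Timd4 with Adgre1 (r = −0.616, rho −0.482, p = 0.0167, adjusted p = 0.0342) and Timd4 with Lyz2 (r = −0.587, rho −0.362, adjusted p = 0.0478). Neither passed by Spearman's rho, and without G-L140 and G-L145 they were −0.301 and −0.228, so the relation rests on those libraries.

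Cd163 with Lyve1 had r = 0.56 (rho 0.479, p = 0.0489, adjusted p = 0.0881), and −0.01 without G-L141 and G-L144. It was −0.53 within GFP and 0.936 within F11 libraries. Lyve1 behaved unevenly with the 7 as well, with r from 0.832 to 0.868 within the GFP libraries, where all 7 pairs passed, and from −0.244 to −0.0892 within the F11 libraries. These differences between vectors were not tested. The 6 lymphatic endothelial markers, all at or above 1 CPM on average in each group, summed to 32.13 to 55.35 CPM in GFP and 28.06 to 82.02 CPM in F11 adipose libraries, and their mean log2 level had r = −0.435 with Lyve1 (rho −0.341, adjusted p = 0.226 over 110 relations of members with marker lists, −0.46 without the 2 farthest libraries).

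**Figure D4:**
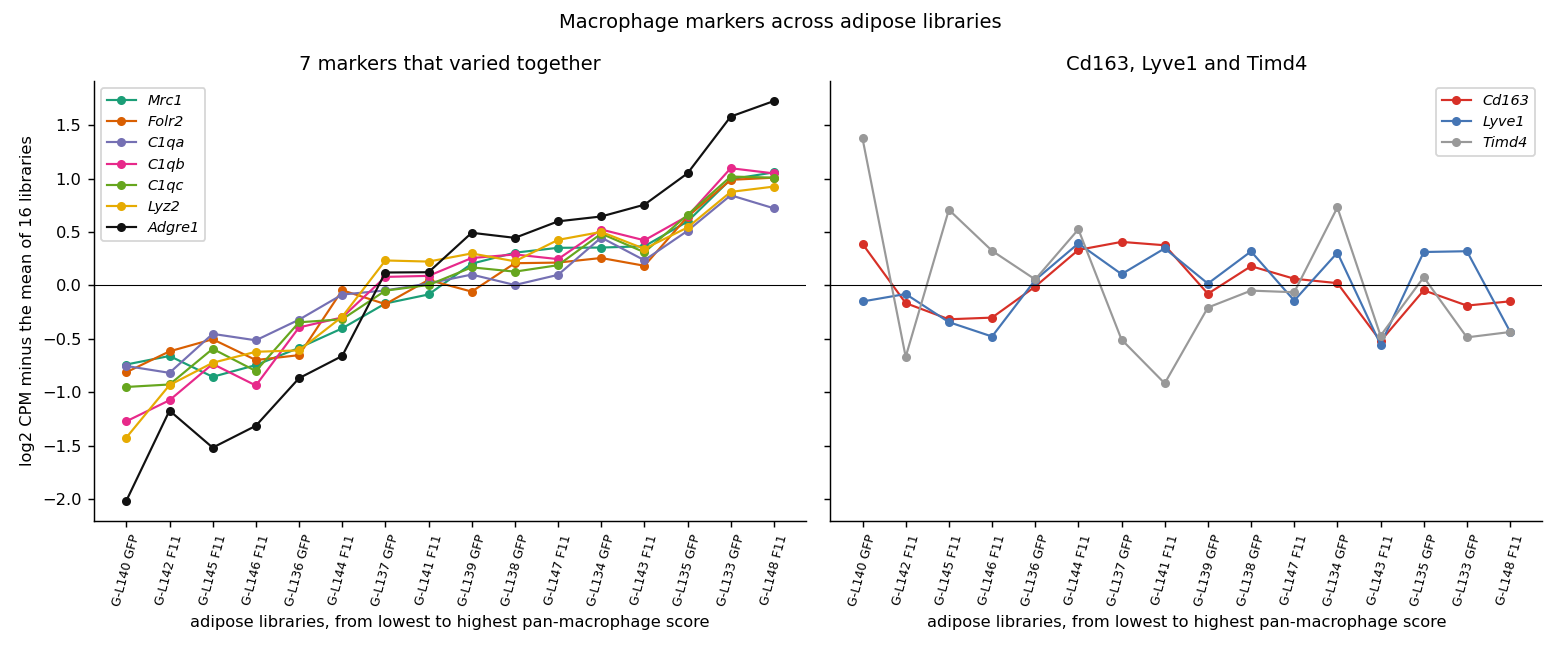
Log2 CPM minus the mean of the 16 adipose libraries for the 7 markers that varied together (left) and for Cd163, Lyve1 and Timd4 (right), with libraries in order of their pan-macrophage score. The left lines climb together from G-L140 to G-L148, with Adgre1 the steepest (13.3-fold), and the right lines show no such climb.

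Heart showed a smaller set of shared changes. Of 45 pairs over 13 hearts 6 passed, and these are the 6 pairs among C1qa, C1qb, C1qc and Lyz2. C1qb with C1qc was the highest at r = 0.956 (rho 0.923, p = 3e-05, adjusted p = 0.00135, 0.943 without L2 and L31). C1qb with Lyz2 had 0.895 (rho 0.874, adjusted p = 0.0036, 0.875 without the same hearts) and C1qc with Lyz2 had 0.868 (rho 0.863, adjusted p = 0.0039, 0.834 without L31 and L5). C1qa had 0.835 with C1qb, 0.81 with C1qc and 0.775 with Lyz2.

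Adgre1, which tracked these genes in adipose tissue, had r of 0.439 to 0.578 with them in heart. Its highest value was 0.794 with Mrc1 (rho 0.566, adjusted p = 0.0535, 0.48 without L2 and L40). Lyve1 with Timd4 had 0.644 (rho 0.687, p = 0.0168, adjusted p = 0.0689). Between hearts Lyz2 varied by 1.49-fold and C1qb by 1.37-fold, far less than between adipose libraries. Lyve1 (13.68 to 30.2 CPM) and Cd163 (19.03 to 38.18 CPM) varied no less in heart than in adipose tissue. The number of pairs called was 3 without L5, 14 without L36 and 3 without L2 and L8.

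**Figure D5:**
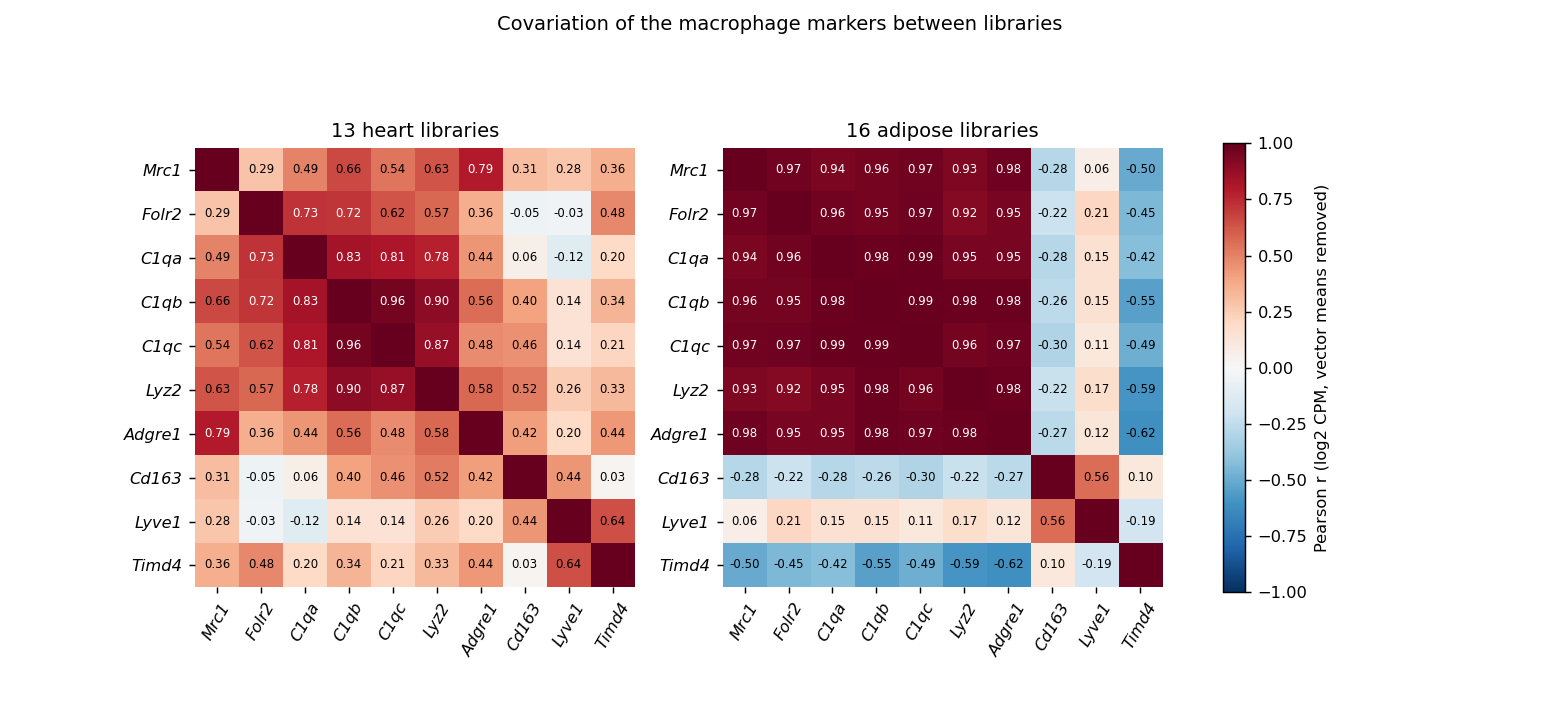
Pearson's r for every pair of markers over 13 heart libraries (left) and 16 adipose libraries (right), from log2 CPM with the vector group means removed; red is positive, blue is negative and the number is r. The adipose block of 7 genes lies between 0.92 and 0.991, and in heart the strongest square holds C1qa, C1qb, C1qc and Lyz2.

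The genes whose pattern was most like each member were found by r over the libraries of a tissue, which is a description. In adipose tissue Adgre1 was most like Lgmn, P2ry6 and Nckap1l (r = 0.998 each), Lyz2 most like Itgb2, Atf3 and Cybb (0.995), and C1qb most like Fermt3 (0.995). Itgb2 is the common chain of the leukocyte integrins and Cybb a subunit of the phagocyte oxidase. Mrc1 was most like Hpgds (0.996), a prostaglandin synthase, and Folr2 most like Rgs10 (0.982). Such company was broad, for 1100 of 14809 genes (7.43%) had r of at least 0.9 with Adgre1. No gene reached 0.9 with Cd163, Lyve1 or Timd4. Cd163 was most like Pik3ip1 (0.817), and Lyve1 was most like Csrnp1 (0.798), F13a1 (0.767) and Cbr2 (0.75), of which the last pair are on the list of other resident macrophage genes. Timd4 was most like Phlpp2 (0.88), Gata6 (0.846), a transcription factor of serous cavity macrophages, mesothelium and heart muscle, and Gpam (0.842). Gata6 averaged 82.1 CPM in hearts and 7.93 CPM in adipose tissue, and its highest adipose library, at 18.68 CPM, was G-L140, the one with cardiomyocyte transcripts and the most Timd4. Without G-L140 the r of Timd4 was 0.81 with Phlpp2, 0.755 with Gata6 and 0.745 with Gpam. In heart the nearest genes of Lyz2 were Itgb2 (0.908) and Spi1 (0.9), which encodes PU.1. Those of Mrc1 were Itgam (0.935) and F13a1 (0.921), and that of C1qa was the interferon-induced Bst2 (0.929). Adgre1 was most like Prickle2 (0.962) and Timd4 most like Lum (0.877).

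A list of 21 other genes of resident macrophages held genes of both patterns in adipose tissue. The haem oxygenase Hmox1 (0.974) and the lectin Clec10a (0.949) had r of at least 0.9 with Adgre1. The iron exporter Slc40a1 (−0.52) and the bridging ligand Gas6 (−0.545) had r at or below −0.5 with it, and 12 genes lay between −0.5 and 0.5. With Lyve1, 4 reached 0.5: F13a1 (0.767), Cbr2 (0.75), Cd209f (0.706) and Fcna (0.563). With Cd163, 3 did: Ccl24 (0.762), Gas6 (0.627) and Fcna (0.512). With Timd4 none did. None of the 21 passed the vector comparison in either tissue (17 were tested in heart). The lowest p in heart was that of Selenop (log2 −0.15, adjusted p = 0.092), and in adipose tissue that of Igf1 (log2 −0.27, adjusted p = 0.9996). Between tissues 18 were higher in adipose tissue, with Igf1 at 3.38, Cd209f at 5.19, Fcna at 3.52 and Clec10a at 4.63 on the log2 scale. Slc40a1 (−1.63) and Gas6 (−0.55) were higher in heart, and Vsig4 (−0.07) missed the threshold.

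Lists of general, recruited and lipid-associated macrophage genes place the members among other cells of the lineage. In heart none of the 16 pan-macrophage genes passed the vector comparison (median log2 −0.10). The common leukocyte antigen Ptprc was at −0.29 (adjusted p = 0.117) and the endotoxin co-receptor Cd14 at −0.27 (adjusted p = 0.250). The 7 MHC class II genes had negative values without a call (median −0.25, H2-DMb1 −0.40 with adjusted p = 0.277). The 7 monocyte genes tested gave 0 calls, with Hp (haptoglobin, which adipocytes and liver also make) at −1.94 (SE 0.54, adjusted p = 0.126), Ccr2 at −0.14 and Ly6c2 at −0.16. Hp was 10.28 higher in adipose tissue than in heart on the log2 scale. Its value in hearts had the sign of Adipoq and Plin1, while the adipocyte markers Lipe (−0.07) and Fabp4 (0.02) were near 0. The part of fat in the Hp value was not tested. In adipose tissue 0 of these genes were called, as for all genes.

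Over the adipose libraries the mean log2 level of each list was compared with each member, 110 relations in the tissue. Adgre1 had r = 0.995 with the pan-macrophage list (rho 0.976, adjusted p = 6.87e-05, 0.991 without the 2 farthest libraries) and 0.987 with the lipid-associated list (rho 0.979, 0.993 without them). It had 0.752 with the monocyte list (rho 0.768, 0.53 without them). Between tissues the lipid-associated genes were higher in adipose tissue for 12 of 12, with a median log2 difference of 5.08 and Mmp12 at 7.51. Of all genes tested 47.3% were higher in adipose tissue. The lipid-associated list summed to 6428 to 8177 CPM in GFP and 6380 to 8119 CPM in F11 hearts. The pan-macrophage list summed to 134.9 to 165.4 CPM and 117.4 to 154.8 CPM there. The part of other cell types in the lipid-associated list was not tested. The monocyte genes were higher for 9 of 10 tested, with the receptor Ccr2 at 3.97. Timd4 had r = −0.662 with the lipid-associated list (rho −0.453, adjusted p = 0.0268), and −0.43 without the 2 farthest libraries. In heart, Lyz2 (r = 0.876, rho 0.824, 0.811 without the 2 farthest) and C1qb (0.864, rho 0.934, 0.921 without them) passed with the pan-macrophage list, both at an adjusted p of 0.0176.

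Adipocyte markers ran the other way in adipose tissue. Their mean log2 level had r = −0.65 with Mrc1 (rho −0.538, adjusted p = 0.0255), which was −0.3 without the 2 farthest libraries. The 6 adipocyte markers summed to 12600 to 17370 CPM in GFP and 10170 to 17490 CPM in F11 libraries, lowest in G-L133 and G-L148, the libraries with the most Adgre1. The part of cell composition in the shared changes was not tested.

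The partners of the members gave no vector calls either. Of 5 genes of macrophage growth factor signalling, 0 passed in heart, with Il34, a ligand of Csf1r, at 0.39 (SE 0.13, adjusted p = 0.170). Signalling through Csf1r keeps macrophages alive. Il34 and Csf1r were higher in adipose tissue (log2 2.31 and 2.15), as were Csf2ra and Csf2rb (2.94 and 5.10), which encode chains of the GM-CSF receptor. The other ligand of Csf1r, Csf1, was higher in heart (−0.39). Of the 7 classical complement partners of C1q, 0 passed in heart, with C2 at −0.55 (adjusted p = 0.246). Between tissues 6 were higher in adipose tissue, with C4b at 5.16 and the protease C1s1 at 2.70. Of the genes for clearing dying cells, 12 were tested in heart with 0 calls. Between tissues 9 were higher in adipose tissue, among them Mertk (1.72) and its ligand Pros1 (1.90), and Gas6 and Tyro3 (−0.59) were higher in heart. The directions of Gas6, Csf1, Tyro3 and Slc40a1 hold for the TMM scaling, and these genes were not tested under library totals, which moved the median of all genes from 0.119 to 1.08. In adipose tissue none of these 3 lists held a gene called between vectors.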

How the data were processed

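Per the labels' protocols, RNA was extracted with miRNeasy columns, and mRNA libraries (Nugen Universal Plus) were sequenced on a NovaSeq. The authors deposited estimated counts per gene, made with kallisto 0.46 and build GRCm38.p6 per the submitters' processing notes; the annotation release and the step from transcripts to genes are unstated in the labels. Of the values 30.8% were not whole. Symbols came from GENCODE vM21, which matched 35935 of the 36558 gene IDs. The labels name 30 libraries and 29 were analysed; L10 (heart, GFP) was not analysed here. Groups came from the sample titles. No library repeated another (lowest chi-square per degree of freedom within a group 3.36 in heart and 8.4 in adipose tissue). Totals of 15949550 to 33022539 counts per library limit the precision of scarce genes such as Timd4.

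Counts were rounded and fitted with edgeR 4.0.16 in R 4.3.3 (filterByExpr, TMM, robust quasi-likelihood, two-sided, Benjamini-Hochberg over all genes tested, threshold 0.05), each tissue alone for the vectors and all 29 libraries for the interaction and the tissues. Printed CPM values use TMM over all 29 libraries. Correlations used log2 CPM (prior count 2, TMM within tissue) centred on vector groups. Alternatives were DESeq2 1.42.0 and its size factors, limma 3.58.1 voom with quality weights, other filters and prior counts, the pan-macrophage score as covariate, single vector groups and each library left out. Fits without the libraries rich in other tissues' transcripts, with library totals and with Csf1r, all 16 pan-macrophage genes or the 9 outside the score as covariate were added after seeing the data. All members are named in every comparison. For the lists, called genes up to 4 by p-value are named, or else those of lowest p (at most 2), and the genes of most similar pattern are the first 3 by r with a mean of at least 1 CPM. The CPM ratios, Lyz1, the adipose genes beside the threshold of 0.5 and further list genes were chosen after their values were seen. The members and lists were chosen with earlier results of these data known. Some list genes are not reported here. The fits were tested on simulated data.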

Additional observations from a re-analysis of the deposited data

Results flagged for a closer look

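In 6 of the 40 groups of a member, tissue and vector, 1 library stood apart from the rest of its group by Dixon's criterion, where chance alone gives about 5% of groups. Cd163 in F11 hearts was 38.18 CPM in L33, with the next heart at 26.54. Mrc1 was 45.08 CPM in the GFP heart L2, with the next at 37.51, and 24.56 CPM in the F11 heart L40, with the next at 34.94. C1qa in F11 hearts was 45.03 CPM in L31, with the next at 37.48. In F11 adipose tissue G-L148 stood apart for Folr2 at 59.65 CPM, with the next library at 34.4, and for Adgre1 at 333.1 CPM, with the next at 170.1. L2 is the heart with 166 CPM of Alb, and G-L148 had the highest pan-macrophage score of all adipose libraries.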

How the results depend on the processing

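The counts of called members (0 in heart, 0 in adipose tissue, 0 for the difference between tissues in vector effect, 9 between tissues) were the same without each library in turn and under every other alternative, except that 1 heart member (Lyz2) was called with the pan-macrophage score, and that 8 members differed between tissues in F11 libraries alone, where Lyve1 was at 0.115, and 10 with library totals, where Timd4 was at 1.15. Of the values of single members, 348 kept direction and side of the threshold under other alternatives and 657 with a library left out. Values near 0 turned sign, and the cause was not tested. Without single hearts Mrc1 ran from −0.0776 to 0.0275 (0.0186 without L2), Folr2 from −0.131 to 0.0108 and C1qa from −0.041 to 0.0709 (−0.0223 without L5, −0.0108 without L6). Without L2 and L8 Mrc1 in heart was 0.0239. With all 16 pan-macrophage genes as covariate, and with the 9 outside the score, Mrc1 in heart was 0.0661 and 0.138, Folr2 0.0864 and 0.181, C1qb 0.0625 and 0.136 and C1qc 0.035 and 0.102, and in adipose tissue Folr2 was 0.0576 and 0.0547 and Lyz2 0.0301 and 0.0237. With Csf1r as covariate Mrc1 was 0.037, Folr2 0.011 and C1qb 0.0163 in heart, and Folr2 0.0548 and Lyz2 0.0218 in adipose tissue. With the score Folr2 was 0.0595 and Lyz2 0.0353 in adipose tissue, where Folr2 ran from −0.306 to 0.0555 without single libraries. The 6 correlated pairs in heart became 3 within GFP hearts, 0 within F11 hearts (5 at an unadjusted p under 0.05), 3 without L2 and L8, and 3 to 14 without single hearts. In adipose tissue 21 to 26 pairs were called without single libraries, 22 within F11 libraries and 30 within GFP libraries, where the 7 pairs of Lyve1 with the group of 7 and 2 negative pairs of Cd163 were added. No paired analysis was made. The groups share no library numbers, and the labels leave unstated whether heart and adipose libraries came from the same mice. The fits across tissues treated every library as separate. Scarce members such as Timd4 are the ones most limited by depth.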
